A study of Rattus norvegicus with 12 samples.

Results

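The 10 genes described here encode 7 dual-specificity phosphatases (Dusp1, Dusp4, Dusp5, Dusp6, Dusp8, Dusp10 and Dusp14) and 3 Sprouty proteins (Spry1, Spry2 and Spry4). They were taken by symbol from the 18469 genes of the deposited tables. No measured value entered that match, but the list itself was chosen with earlier results of these data known. Each symbol had 1 entry, under gene IDs 114856, 60587, 171109, 116663, 361679, 63995, 360580, 294981, 306141 and 291610 in the order above, and all 10 genes passed the filter on low counts in every comparison.

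The libraries came from cultured neonatal rat ventricular myocytes (NRVMs) of Sprague-Dawley rats, kept in medium with an insulin, transferrin and selenium supplement. Each of 4 groups held 3 independent biological replicates. The groups were siNeg (negative control siRNA, no PE), siNeg.PE (the same siRNA, then PE for 36 hours), siSlc25a26 (siRNA against Slc25a26, no PE) and siSlc25a26.PE (that siRNA, then PE for 36 hours). PE (phenylephrine, an agonist of alpha-1 adrenergic receptors that enlarges cultured myocytes) was added 12 hours after transfection, so all groups had been transfected, and the labels name 1 siRNA against Slc25a26.

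Mitogen-activated protein (MAP) kinases are switched on by phosphorylation of a threonine and a tyrosine in their activation loop, and the dual-specificity phosphatases take both phosphates off again. Members of the family differ in the kinase they prefer (ERK, JNK or p38), in where they sit in the cell, and in how quickly their genes respond. Sprouty proteins act further upstream, between receptor tyrosine kinases and RAF, and many genes of both families are transcribed in response to the kinase activity they restrain.

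Total counts were 24770972 to 28709049 per library. Slc25a26, the mitochondrial carrier of S-adenosylmethionine that the siRNA targets, was at 31.4 ± 2.001 CPM (counts scaled to library size, mean ± SD, n = 3) in siNeg and 15.1 ± 0.612 in siSlc25a26 (log2 fold change -1.08, adjusted p = 1.08e-05 by edgeR). Under PE it was 102 ± 14.1 in siNeg.PE and 102 ± 3.69 in the libraries labelled siSlc25a26.PE (-0.0062, adjusted p = 0.969). A lower level of the target was thus measured without PE and not under PE, and every difference given below for siSlc25a26.PE is a difference between libraries so labelled. The PE marker Nppa (atrial natriuretic peptide) rose with PE in siNeg (4.63, adjusted p = 2.22e-06), and replicate 3 of siNeg.PE had the lowest Nppa, Nppb and Acta1 of its group. Summed over 10 markers per cell type, cardiomyocyte genes were at 21676 to 24358 CPM in siNeg, 25328 to 26516 in siNeg.PE, 19404 to 22426 in siSlc25a26 and 25348 to 26486 in siSlc25a26.PE, while fibroblast genes were at 21556 to 23713 CPM in siNeg, 11725 to 12196 in siNeg.PE, 12519 to 14048 in siSlc25a26 and 8760.0 to 9533 in siSlc25a26.PE. Most of the fibroblast sum came from the collagen genes Col1a1, Col3a1 and Col1a2, and not all of the list followed it: with PE in siNeg the mean went from 102 to 124 CPM for Dcn and from 68.4 to 89.0 for Pdgfra, neither of them called. Mural markers were at 3749 to 4024, 1991 to 2421, 2109.8 to 2393 and 2267 to 2352 CPM in the same order of groups, macrophage markers at 113 to 135, 62.6 to 71.9, 60.7 to 70.2 and 42.7 to 50.8, and endothelial markers at 45.5 to 48.8, 33.4 to 37.7, 41.5 to 43.6 and 41.0 to 43.7. The macrophage marker Cd163 was at or near 0 in every group. Of 12 interferon-response genes, 11 rose with the siRNA both without and under PE, their summed level being 209 to 241 CPM in siNeg, 155 to 170.3 in siNeg.PE, 8069 to 8751 in siSlc25a26 and 4889 to 5403 in siSlc25a26.PE. In bulk RNA, fewer cells of a type and less RNA per cell cannot be told apart.

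The members were first counted in each comparison. A gene was called when edgeR's quasi-likelihood test gave a Benjamini-Hochberg adjusted p under 0.05 and the fold change passed 1.5. PE in siNeg raised 4 members (Dusp4, Dusp6, Dusp8 and Spry4) and lowered 1 (Dusp10), where 12.4% of all genes tested rose and 8.24% fell. PE in siSlc25a26 raised Dusp4, Dusp6 and Dusp8 and lowered Dusp5, that is 3 members up and 1 down, against 10.1% and 10.4% of all genes. The siRNA without PE lowered 1 member, Dusp14, and raised 0, where 3 were higher at an unadjusted p under 0.05, DESeq2 and limma-voom also called 0, and 8.92% of all genes rose and 7.2% fell. Under PE, Dusp8 was higher and Dusp5 lower in the libraries labelled siSlc25a26.PE than in siNeg.PE, 1 member each way beside 7.71% and 8.1% of all genes. The PE effect itself differed between the siRNAs for 3 members, being larger for Dusp4 and Dusp8 and lower for Dusp5, where 2.16% of all genes had a larger and 3.34% a lower PE effect. The median log2 fold change of the 10 members was 0.16, 0.31, -0.081, 0.13 and 0.14 in that order, and that of all genes tested was within 0.05 of 0 in each. By adjusted p alone, with no fold threshold, 8, 8, 4, 5 and 5 of the 10 members passed in that order, beside 49.5%, 52.4%, 45%, 40.1% and 11.2% of all genes. The groups compared did not overlap in CPM for 9, 8, 6 and 7 members in the pairwise comparisons, beside 58.6%, 61%, 56.9% and 52% of all genes. Comparisons with a shared group are not independent of each other. Fibroblast markers were called lower for 5, 1, 7 and 5 of 10 genes in the 4 pairwise comparisons in the same order, and higher for 1, Tcf21, in the last. Mural markers were called lower for 5, 2, 5 and 3 of 10 and higher for 2, 3 and 1 in the first, second and last, and macrophage markers were called lower for 6, 1, 6 and 2 of 10. Endothelial markers were called lower for 3, 1, 1 and 0 of 10 and higher for 1 in the second. Cardiomyocyte markers were called higher for 3, 3, 0 and 0 of 10 and lower for 1 with the siRNA without PE. The part of these marker lists in the members' changes was not tested. The same holds for the interferon-response genes in both siRNA comparisons.

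**Figure D1:**
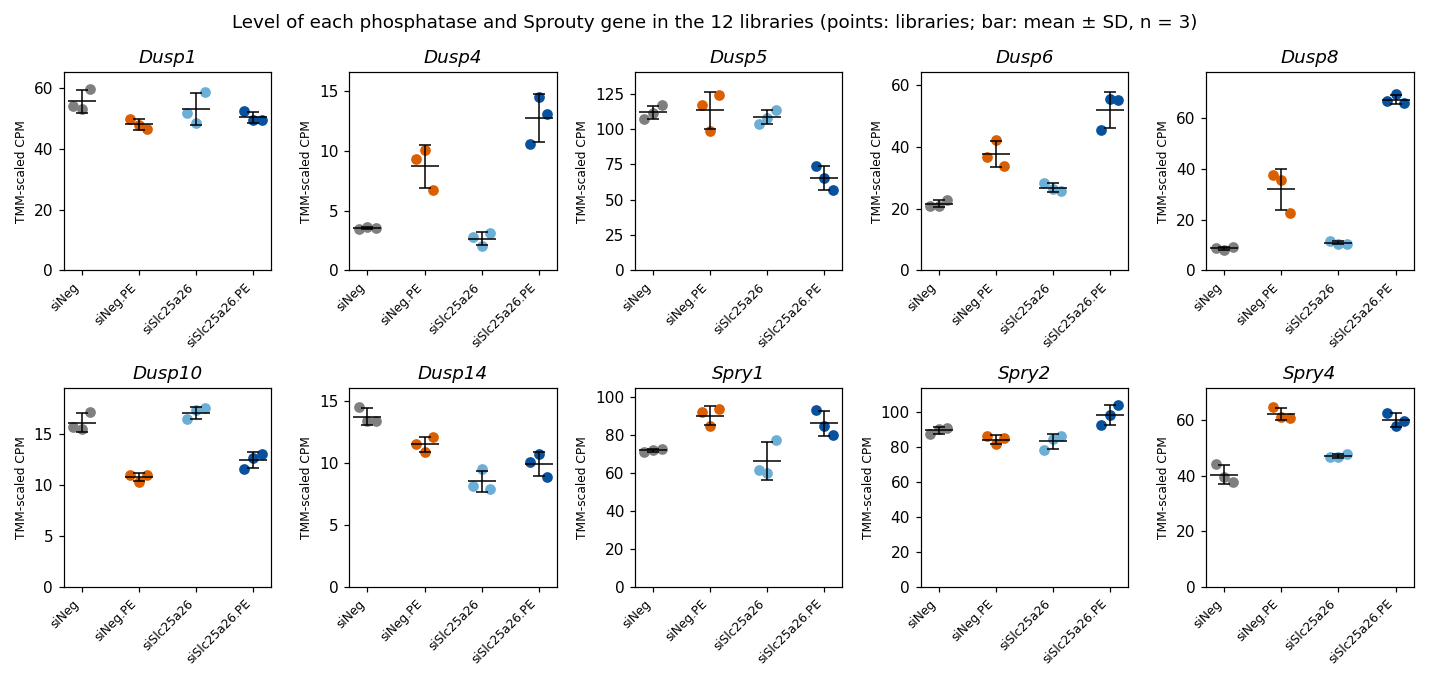
Level of each of the 10 genes in the 12 libraries, in TMM-scaled CPM on a linear axis from 0, with points for libraries and a bar for the group mean ± SD (n = 3). Dusp8 and Dusp4 are higher in both PE groups, and Dusp5 is lower in siSlc25a26.PE alone.

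The promoters of 3 phosphatases are shown before their values. The sequences are the RefSeq windows on the rat build GRCr8, from 250 bases before to 50 bases after the annotated start of transcription, written 5′ to 3′ on the strand of the gene. They are shown for Dusp5, which was lower in siSlc25a26.PE, for Dusp8, which rose most, and for Dusp1, the immediate-early member. The deposited counts were made on another build, so the coordinates belong to the sequences only. Capitals mark matches, on either strand, to 6 motifs: the cAMP response element TGACGTCA, its half-site TGACG, the ETS core CCGGAA, the AP-1 site TGANTCA, the CArG box bound by serum response factor, and the MEF2 site.
Dusp5, chr1:262543524-262543823, plus strand: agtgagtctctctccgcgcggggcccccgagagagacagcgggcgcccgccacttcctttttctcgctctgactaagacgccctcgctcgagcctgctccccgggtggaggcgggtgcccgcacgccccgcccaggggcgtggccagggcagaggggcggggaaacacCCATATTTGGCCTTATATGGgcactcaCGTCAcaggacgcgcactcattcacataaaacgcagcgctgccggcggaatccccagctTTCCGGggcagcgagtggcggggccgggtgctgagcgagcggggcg
Dusp8, chr1:206612392-206612691, minus strand: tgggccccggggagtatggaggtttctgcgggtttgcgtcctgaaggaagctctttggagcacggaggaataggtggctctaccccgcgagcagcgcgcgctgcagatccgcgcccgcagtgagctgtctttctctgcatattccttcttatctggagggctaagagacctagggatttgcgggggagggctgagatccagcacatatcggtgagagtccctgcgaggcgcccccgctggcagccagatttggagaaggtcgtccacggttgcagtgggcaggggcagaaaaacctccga
Dusp1, chr10:17184603-17184902, plus strand: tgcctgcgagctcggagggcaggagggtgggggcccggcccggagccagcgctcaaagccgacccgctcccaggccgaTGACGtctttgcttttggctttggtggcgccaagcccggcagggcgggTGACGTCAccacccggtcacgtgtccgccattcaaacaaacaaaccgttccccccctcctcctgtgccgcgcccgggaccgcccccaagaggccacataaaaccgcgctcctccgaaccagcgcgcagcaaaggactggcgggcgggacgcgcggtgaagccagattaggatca

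With the first transcribed base counted as 1, the Dusp5 window held 2 adjacent CArG boxes, at -82 to -73 and -72 to -63, a response element half-site at -55 to -51 and an ETS core at 5 to 10. A CArG box was present in 1.64% of the 33469 windows in the table, the half-site in 21.2% and the ETS core in 15%. The Dusp1 window held the full response element at -124 to -117, found in 1.83% of windows, which contains the half-site on both strands, and 1 further half-site at -172 to -168. None of the 6 motifs matched in the Dusp8 window. The AP-1 and MEF2 letters matched in 7.33% and 3.29% of all windows and in none of these 3. A match is a match of letters in this window, not a measured site. Of the members, 9 had a promoter entry and Dusp4 had none.

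Dusp5, a nuclear phosphatase selective for ERK, was the most abundant member in siNeg and was lower in siSlc25a26.PE. It was at 107, 111 and 117 CPM in the 3 libraries of siNeg, 117, 98.9 and 124 in siNeg.PE and 104, 108 and 114 in siSlc25a26, and these 9 values overlapped. In siSlc25a26.PE it was at 73.7, 65.6 and 56.6, below all 9. PE lowered it there relative to siSlc25a26 (log2 fold change -0.72, SE 0.0874, adjusted p = 0.000153), that is to 0.606 of the level without PE. In siNeg the PE difference was 0.010 (SE 0.0882, 95% interval -0.19 to 0.21, adjusted p = 0.931). The difference between these PE effects was -0.75 (SE 0.135, adjusted p = 0.00395 by edgeR), and it was called whichever library was left out (-0.85 to -0.66). Against siNeg.PE, the libraries labelled siSlc25a26.PE were lower by 0.81 on the log2 scale (SE 0.111, adjusted p = 0.000575), whereas the siRNA without PE moved it by -0.068 (adjusted p = 0.331).

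Dusp1 encodes the immediate-early nuclear phosphatase that acts on p38, JNK and ERK. It varied least between groups of the nuclear members, with 54.0, 53.1 and 59.8 CPM in siNeg, 49.95, 47.9 and 46.4 in siNeg.PE, 51.9, 48.5 and 58.8 in siSlc25a26 and 52.6, 49.4 and 49.4 in siSlc25a26.PE. All 3 values of siNeg.PE lay below those of siNeg, and the groups of the other 3 pairwise comparisons overlapped. The PE difference in siNeg was -0.22 (adjusted p = 0.0222), inside the 1.5-fold line. The 95% interval of the PE difference was -0.37 to -0.072 in siNeg and -0.24 to 0.11 in siSlc25a26, so a 1.5-fold change at this time was outside both.

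Dusp4, a nuclear phosphatase for ERK and JNK, was the scarcest member without PE. It was at 3.48, 3.59 and 3.54 CPM in siNeg and 9.31, 10.1 and 6.71 in siNeg.PE, and rose 2.44-fold (log2 fold change 1.29, SE 0.161, adjusted p = 0.000485). In siSlc25a26 it was at 2.79, 2.02 and 3.09 and in siSlc25a26.PE at 10.6, 14.5 and 13.1, a 4.87-fold rise (log2 fold change 2.29, SE 0.179, adjusted p = 1.09e-05). Within each siRNA the PE groups did not overlap the groups without PE. The log2 difference between the PE effects was 0.97 (SE 0.259, adjusted p = 0.0308). The siRNA difference was -0.45 without PE (adjusted p = 0.0666) and 0.54 under PE (adjusted p = 0.0344), neither of them called. With 1 library left out, the difference between PE effects kept its direction in all 12 fits (0.82 to 1.12) and lost its call in 7 of 12. Those libraries were replicates 1 and 2 of siNeg (adjusted p = 0.0601 and 0.0644), replicate 3 of siNeg.PE (0.0555), replicates 1 and 2 of siSlc25a26 (0.0511 and 0.0738) and replicates 2 and 3 of siSlc25a26.PE (0.0800 and 0.0552). The siRNA difference under PE was called without replicate 1 or 2 of siNeg.PE (0.60 and 0.65) or replicate 1 of siSlc25a26.PE (0.66).

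Dusp6 encodes the cytoplasmic phosphatase that binds and inactivates ERK, and it is a classical ERK-induced gene. It was at 20.8, 20.8 and 22.8 CPM in siNeg, 36.6, 42.1 and 33.8 in siNeg.PE, 28.3, 26.4 and 25.6 in siSlc25a26 and 45.3, 55.4 and 55.0 in siSlc25a26.PE. No groups overlapped, siNeg being lowest, then siSlc25a26, siNeg.PE and siSlc25a26.PE. PE raised it in siNeg (log2 fold change 0.79, SE 0.0899, adjusted p = 0.000297) and in siSlc25a26 (log2 fold change 0.96, SE 0.0897, adjusted p = 3.08e-05). The siRNA differences, 0.29 without PE (adjusted p = 0.0114) and 0.46 under PE (adjusted p = 0.00916), were inside the 1.5-fold line. For the difference without PE, the adjusted p was over 0.05 without replicate 2 of siNeg (0.0507) or replicate 1 of siSlc25a26 (0.05001). The difference between the PE effects was 0.15, with a 95% interval of -0.14 to 0.44 that includes 0 (adjusted p = 0.523).

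Dusp8, a phosphatase described for JNK and p38, had the largest PE difference of the 10 in both siRNA conditions. It was at 8.92, 7.97 and 9.15 CPM in siNeg and 37.6, 35.5 and 22.6 in siNeg.PE (3.63-fold, log2 fold change 1.86, SE 0.181, adjusted p = 0.000145). It was at 11.7, 10.6 and 10.5 in siSlc25a26 and 66.7, 69.4 and 65.9 in siSlc25a26.PE (6.22-fold, log2 fold change 2.64, SE 0.0675, adjusted p = 2.57e-08). Each group lay wholly above the one before it when ordered siNeg, siSlc25a26, siNeg.PE, siSlc25a26.PE. Replicate 3 of siNeg.PE, the library lowest in Nppa, was the low value of its group, and without it the log2 fold change with PE in siNeg was 2.05, adjusted p = 1.00e-05. Under PE, the libraries labelled siSlc25a26.PE were 2.09-fold above siNeg.PE (log2 fold change 1.07, SE 0.165, adjusted p = 0.00108), while without PE the siRNA difference was 0.30 (adjusted p = 0.0321). The latter adjusted p was over 0.05 without replicate 2 of siNeg (0.131) or replicate 1, 2 or 3 of siSlc25a26 (0.117, 0.0639 and 0.0559). The PE effects differed by 0.75 (SE 0.212, adjusted p = 0.0394). This difference kept its direction in all 12 fits that left out 1 library (0.56 to 0.88) and kept its call in 2 of them, those without replicate 1 or 2 of siNeg.PE. Without replicate 3 of siNeg.PE it was 0.56, adjusted p = 0.00754, below the fold threshold, and without each of the other 9 the adjusted p was between 0.0517 and 0.0879.

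Dusp10, which acts on p38 and JNK, moved the other way with PE. It was at 15.7, 15.4 and 17.2 CPM in siNeg and 10.9, 10.3 and 10.98 in siNeg.PE (log2 fold change -0.60, SE 0.0890, adjusted p = 0.00110). It was at 16.4, 17.3 and 17.5 in siSlc25a26 and 11.5, 12.6 and 13.03 in siSlc25a26.PE (log2 fold change -0.45, SE 0.0824, adjusted p = 0.00162). Every PE value lay below every value without PE. The fold change in siNeg was close to the threshold and was not called without replicate 3 of siNeg (-0.55) or replicate 2 of siNeg.PE (-0.56). That in siSlc25a26 was inside the threshold. The difference between the PE effects was 0.12, with a 95% interval of -0.12 to 0.36 that includes 0.

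Dusp14, a small atypical phosphatase that lacks the kinase-binding domain of the classical members, was the one member called for the siRNA without PE. It was at 14.5, 13.4 and 13.4 CPM in siNeg and 8.14, 9.49 and 7.85 in siSlc25a26 (log2 fold change -0.72, SE 0.101, adjusted p = 0.000559), without overlap. Under PE it was at 11.5, 10.9 and 12.1 in siNeg.PE and 10.1, 10.7 and 8.81 in siSlc25a26.PE (-0.23, adjusted p = 0.116), also without overlap. PE moved it by -0.27 in siNeg (adjusted p = 0.0406) and by 0.22 in siSlc25a26 (adjusted p = 0.130), both inside the 1.5-fold line. These PE effects differed by 0.47 (SE 0.142, adjusted p = 0.04998), again inside that line. With 1 library left out, that adjusted p stayed under 0.05 only without replicate 3 of siSlc25a26.PE (0.0315) or replicate 2 of siSlc25a26 (0.0364). For the PE difference in siNeg it did so only without replicate 3 of siNeg.PE (0.0444). The deposited count of Dusp14 was not a whole number in 9 of 12 libraries, so part of its reads was assigned by estimate.

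Of the Sprouty genes, which restrain signalling from receptor tyrosine kinases to ERK, Spry4 was the one called. It was at 44.0, 39.4 and 37.5 CPM in siNeg and 64.8, 61.1 and 60.7 in siNeg.PE (log2 fold change 0.61, SE 0.0745, adjusted p = 0.000415). It was at 46.5, 46.7 and 47.9 in siSlc25a26 and 62.6, 57.8 and 59.8 in siSlc25a26.PE (log2 fold change 0.36, SE 0.0565, adjusted p = 0.000673), where the difference was inside the 1.5-fold line. PE groups lay above groups without PE throughout. The rise in siNeg was not called without replicate 3 of siNeg (0.56), and the difference between the PE effects was -0.27 (adjusted p = 0.0709).

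Spry1 was at 71.3, 72.3 and 72.6 CPM in siNeg, 92.5, 84.9 and 93.7 in siNeg.PE, 61.5, 59.9 and 77.6 in siSlc25a26 and 93.5, 85.003 and 80.3 in siSlc25a26.PE. It was higher with PE under both siRNAs, with no overlap in CPM, by 0.31 (adjusted p = 0.00329) and 0.39 (adjusted p = 0.0111) on the log2 scale, inside the 1.5-fold line. In the deposited FPKM the 2 groups of siSlc25a26 overlapped, replicate 3 being at 20.6 without PE and 19.6 with PE. Spry2 was at 87.1, 89.9 and 90.6 CPM in siNeg, 86.1, 81.2 and 84.6 in siNeg.PE, 78.3, 84.6 and 86.1 in siSlc25a26 and 92.3, 98.2 and 104 in siSlc25a26.PE. The CPM values of siSlc25a26.PE lay above all the others. In the deposited FPKM they did not, with 39.7 to 46.4 in siSlc25a26.PE beside 42.3 to 44.2 in siNeg. The PE difference was -0.10 in siNeg (adjusted p = 0.145) and 0.25 in siSlc25a26 (adjusted p = 0.00983), and the difference between them was 0.33 (SE 0.0793, adjusted p = 0.0203), inside 1.5-fold. That last adjusted p was over 0.05 without replicate 2 of siNeg.PE (0.0560), replicate 2 of siSlc25a26.PE (0.0538) or replicate 1 of siSlc25a26 (0.0539). Without replicate 1 of siSlc25a26, the PE difference in siSlc25a26 had adjusted p = 0.0504 for Spry2 and 0.0527 for Spry1.

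**Figure D2:**
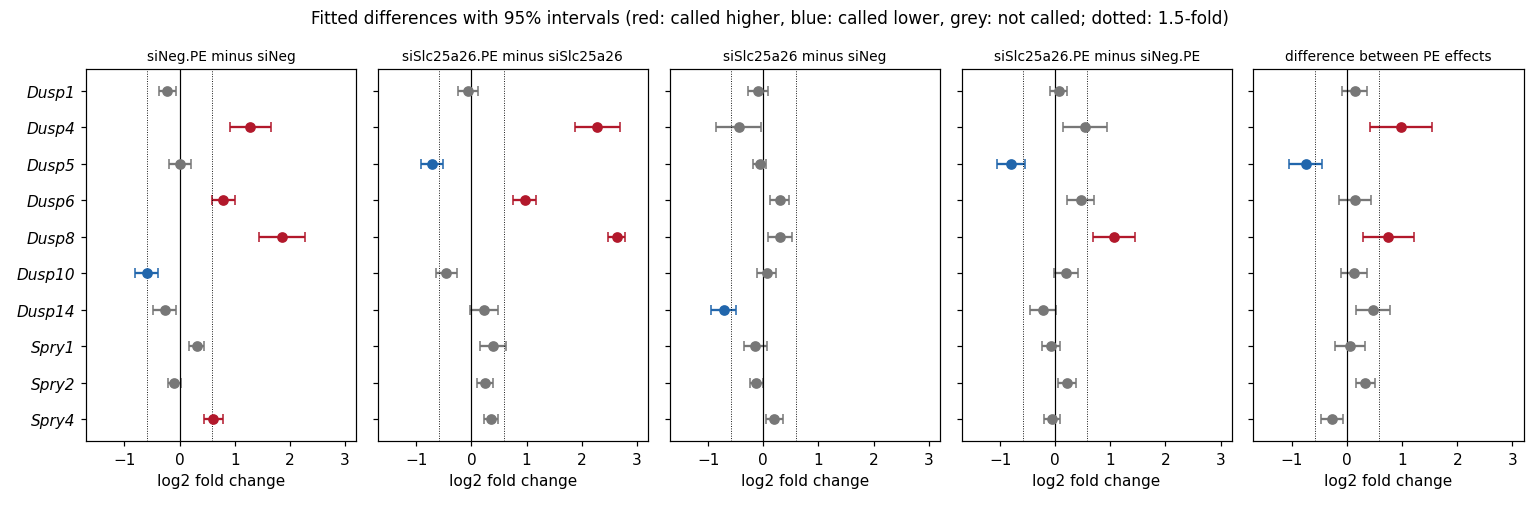
Fitted log2 fold changes of the 10 genes with 95% intervals, one panel for each pairwise comparison and one for the difference between PE effects (siSlc25a26 minus siNeg), with dotted lines at 1.5-fold and colour for called genes. Dusp8 has the largest PE differences, 1.86 and 2.64, and Dusp5 is called lower for PE in siSlc25a26, for siSlc25a26.PE against siNeg.PE and for the difference between PE effects.

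Levels were compared between genes on the deposited FPKM scale, which divides by transcript length. In siNeg the order was Dusp5 (49.0 ± 2.03 FPKM, mean ± SD, n = 3), Spry2 (43.3 ± 0.989), Dusp1 (30.6 ± 1.97), Spry1 (20.01 ± 0.734), Dusp14 (10.99 ± 0.502), Spry4 (8.85 ± 0.721), Dusp6 (8.20 ± 0.410), Dusp10 (6.29 ± 0.351), Dusp8 (3.88 ± 0.270) and Dusp4 (3.26 ± 0.0551). Between neighbours in this order, Spry4 and Dusp6 alone overlapped over their 3 libraries. In siNeg.PE, Dusp5 (47.9 ± 6.16) and Spry2 (39.2 ± 1.03) still led, Dusp10 (4.04 ± 0.196) was last, and 4 of 9 neighbouring pairs overlapped. In siSlc25a26, 2 of 9 overlapped, Spry4 with Dusp6 and Dusp14 with Dusp10. In siSlc25a26.PE, Spry2 (43.1 ± 3.35) led, followed by Dusp8 (27.4 ± 0.821), Dusp5 (26.1 ± 3.10) and Dusp1 (24.9 ± 0.623), of which the last 3 overlapped as neighbours. Dusp8 thus had rank 9 of 10 in siNeg and rank 2 in siSlc25a26.PE.

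The summed FPKM of the 7 phosphatases differed less between groups than the shares of Dusp5 and Dusp8. The sum was 112 ± 4.44 in siNeg, 121 ± 3.44 in siNeg.PE, 109.7 ± 3.28 in siSlc25a26 and 119 ± 3.67 in siSlc25a26.PE (n = 3 each). Dusp5 made up 43.7% ± 0.831 of that sum in siNeg, 39.5% ± 4.64 in siNeg.PE, 44.3% ± 0.924 in siSlc25a26 and 21.9% ± 2.64 in siSlc25a26.PE. Dusp8 made up 3.46% ± 0.189, 11.3% ± 2.67, 4.54% ± 0.386 and 23.1% ± 0.225 in the same order. In siSlc25a26.PE the shares of Dusp5 (19.6 to 24.8%) and Dusp8 (22.9 to 23.3%) overlapped, and in the other 3 groups Dusp5 lay above Dusp8 in every library. Among the Sprouty genes Spry2 held the largest share in every group, from 51.9% ± 1.16 in siNeg.PE to 60.04% ± 1.67 in siNeg. These shares were computed from the same values as the fold changes and were not tested.

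**Figure D3:**
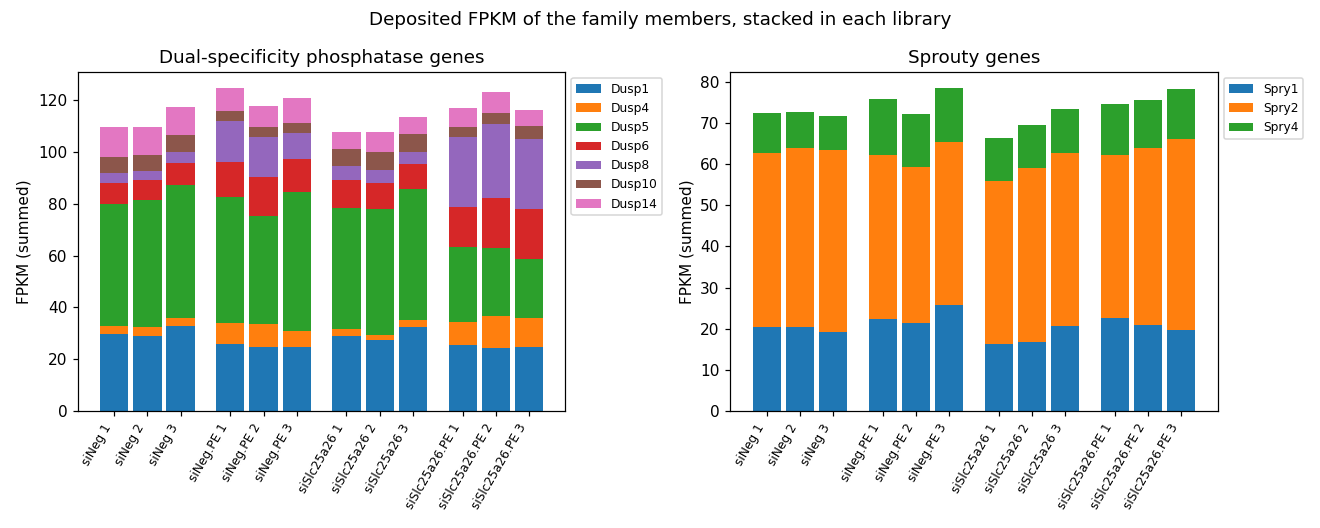
Deposited FPKM of the 7 phosphatase genes (left) and the 3 Sprouty genes (right), stacked in each of the 12 libraries on a linear axis from 0. The group means of the summed phosphatase stacks lie between 109.7 and 121 FPKM, while the Dusp5 block is about as tall as the Dusp8 block in siSlc25a26.PE alone.

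The members were also set beside each other, and beside all genes kept over the 12 libraries, by Pearson's r of log2 CPM. These values are descriptions over 12 libraries in 4 groups that share the 2 treatments. Dusp6 and Dusp8 had the highest r among the members (0.974), followed by Dusp4 and Dusp8 (0.944). Dusp10 ran opposite to Spry4 (-0.869). Over all genes, the profile nearest to Dusp8 was that of Adprhl1 (0.998) and then Csrp3 (0.996), which encodes the muscle LIM protein of the cardiomyocyte. Nearest to Dusp6 was Myocd (0.992), the serum response factor coactivator of cardiac and smooth muscle, to Dusp4 Ptk2b (0.985), a calcium-regulated tyrosine kinase, and to Spry4 Phlda1 (0.974) and Fos (0.967), which encodes a subunit of AP-1. For Dusp5 it was LOC691485 (0.972), for Dusp10 Cited2 (0.980), for Dusp14 Sec61a1 (0.961), for Spry1 Klc1 (0.932), for Spry2 Myof (0.891) and for Dusp1, with the loosest match, Nisch (0.857).

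The rest of the pathway was described through 7 lists that together held 93 other genes. PE in siNeg raised 16 and lowered 10 of the 90 tested, where 12.4% and 8.24% of all genes rose and fell. PE in siSlc25a26 raised 25 and lowered 11 of 91, against 10.1% and 10.4% of all genes. The siRNA raised 11 and lowered 6 of 90 without PE, against 8.92% and 7.2%, and 18 and 10 of 91 in the libraries under PE, against 7.71% and 8.1%. The PE effect was larger in siSlc25a26 for 6 of 91 and lower for 3, against 2.16% and 3.34% of all genes. The counts of each list below are to be read beside these shares of all genes.

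Among 10 other feedback regulators, PE raised 1 in siNeg and raised 4 and lowered 1 in siSlc25a26. Dusp2, an inducible nuclear phosphatase, rose under both siRNAs (2.06, adjusted p = 0.00277, and 1.46, adjusted p = 0.00104), from 0.801 ± 0.492 CPM in siNeg to 3.39 ± 0.806 in siNeg.PE, which is a low level. In siSlc25a26, Dusp16, a JNK phosphatase, rose by 0.66, Errfi1, an inhibitor of the EGF receptor, by 0.64 and Il17rd, a membrane antagonist of FGF signalling, fell by 1.05 (adjusted p = 0.0214). Dusp16 was also higher with PE in siNeg, at 19.8 ± 1.89 CPM without and 29.0 ± 2.003 with PE. Those groups did not overlap, but the difference was not called. Il17rd was at a low level, with 1.90 ± 0.479, 1.23 ± 0.392, 1.80 ± 0.0783 and 0.864 ± 0.424 CPM in siNeg, siNeg.PE, siSlc25a26 and siSlc25a26.PE. Errfi1 was called lower with the siRNA without PE. Its means were 32.0 CPM in siNeg, 39.4 in siNeg.PE, 20.9 in siSlc25a26 and 32.3 in siSlc25a26.PE. The call for Il17rd was lost without any 1 of the 3 siSlc25a26 replicates (log2 fold change -1.47 to -0.75 over all 6 fits with 1 library left out). Spred1, a Sprouty-related inhibitor of RAS, rose with the siRNA without PE (0.82, adjusted p = 0.000337), and its PE effect was lower in siSlc25a26 (-0.61, adjusted p = 0.0450). That difference ran from -0.75 to -0.51 with 1 library left out and was called in 3 of 12 such fits, those without replicate 3 of siNeg, replicate 1 of siNeg.PE or replicate 3 of siSlc25a26.PE, and it was not called with DESeq2 size factors or on either FPKM scale.

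Of 12 genes known as ERK targets, PE raised 5 and lowered 2 in siNeg and raised 7 and lowered 2 in siSlc25a26. Etv4, an ETS factor, rose by 1.31 and 1.39, and in siNeg Phlda1 rose by 0.98 (adjusted p = 1.27e-05) and Fos by 1.09 (adjusted p = 0.000260). In siSlc25a26 the receptor kinase gene Epha2 rose by 0.96 (adjusted p = 4.63e-06) and Ier3, an early-response survival gene, by 1.19 (adjusted p = 4.27e-07). Phlda1 and Fos were also called higher with PE in siSlc25a26, and Ier3 in siNeg. With 1 library left out, these log2 fold changes were 0.61 to 0.79 for Phlda1, 0.72 to 0.82 for Fos and 0.64 to 0.84 for Ier3. The list also held genes that went down: the ETS factor Etv1 changed by -0.62 and -0.90, and Epha4 by -1.03 and -1.21. Etv1 in siNeg was not called without replicate 3 of siNeg or replicate 1 or 2 of siNeg.PE (-0.77 to -0.45 with 1 library left out). Under PE, the siRNA comparison called 4 higher and 1 lower, with Epha2 at 1.06, adjusted p = 3.36e-05 and Egr1, an immediate-early transcription factor, at -0.71, adjusted p = 7.60e-05. Without PE it called 1, Etv4, higher (0.70, adjusted p = 0.00565), which was not called without replicate 3 of siNeg (0.58) or on the log2(FPKM + 1) scale.

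Receptors and ligands moved in both directions. Of 14 receptors, PE lowered 4 under each siRNA and raised 1 in siNeg and 3 in siSlc25a26. The alpha-1 adrenergic receptors, which bind PE, were among them: Adra1a rose (0.72 and 1.01), whereas Adra1b (-0.93 and -1.73) and Adra1d (-1.29 and -2.09) fell. The PE effects on Adra1b and Adra1d were lower in siSlc25a26 by 0.81 (adjusted p = 0.00233) and 0.82 (adjusted p = 0.00898). Under PE, Fgfr2, an FGF receptor, was higher in siSlc25a26.PE by 1.38 (adjusted p = 6.91e-06). Of 12 ligands, PE raised 3 and lowered 3 under each siRNA. Hbegf, an EGF-receptor ligand, rose by 0.60 in siNeg (adjusted p = 0.0106) and by 2.20 in siSlc25a26 (adjusted p = 2.83e-06), and these effects differed (1.57, adjusted p = 0.00121). The rise in siNeg was not called without replicate 2 of siNeg or replicate 1 or 2 of siNeg.PE (0.49 to 0.77 with 1 library left out). Hbegf fell with the siRNA without PE (-0.83, adjusted p = 0.000535), where the list had 4 genes higher and 2 lower.

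Most kinases of the cascade were not called. Of 20, PE raised 2 and lowered 1 in siNeg and raised 3 and lowered 1 in siSlc25a26. Mapk8, which encodes JNK1, rose by 0.76 and 0.63, and Map2k6, a p38 activator, changed by -0.93 and -1.52, both being called under each siRNA. Mapk8 in siSlc25a26 was not called without replicate 3 of siSlc25a26.PE (0.55). Mapk10 was also called higher with PE under each siRNA. With 1 library left out its log2 fold change was 2.69 to 3.12 in siNeg and 1.49 to 2.03 in siSlc25a26. It was called lower for the siRNA under PE (-1.46 to -1.25 with 1 library left out). Among the RAS genes and adaptors, Rasa1, a RAS GTPase-activating protein, rose with PE in siNeg (0.97, adjusted p = 0.00426) and with the siRNA without PE (0.68, adjusted p = 0.00535), the latter not being called without replicate 1 of siNeg (0.51). In the 12 genes of the JNK and p38 arm those called in the 4 pairwise comparisons rose, 2 and 4 with PE and 2 and 3 with the siRNA. Of all genes, 12.4%, 10.1%, 8.92% and 7.71% rose and 8.24%, 10.4%, 7.2% and 8.1% fell in the same order. Gadd45g, a stress-induced activator of that arm, rose with PE by 1.19 (adjusted p = 0.00366) and 2.09 (adjusted p = 2.57e-08), and Atf3, a stress-induced transcription factor, rose with the siRNA by 1.33 without PE (adjusted p = 3.76e-06) and 1.67 under PE (adjusted p = 2.61e-05).

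**Figure D4:**
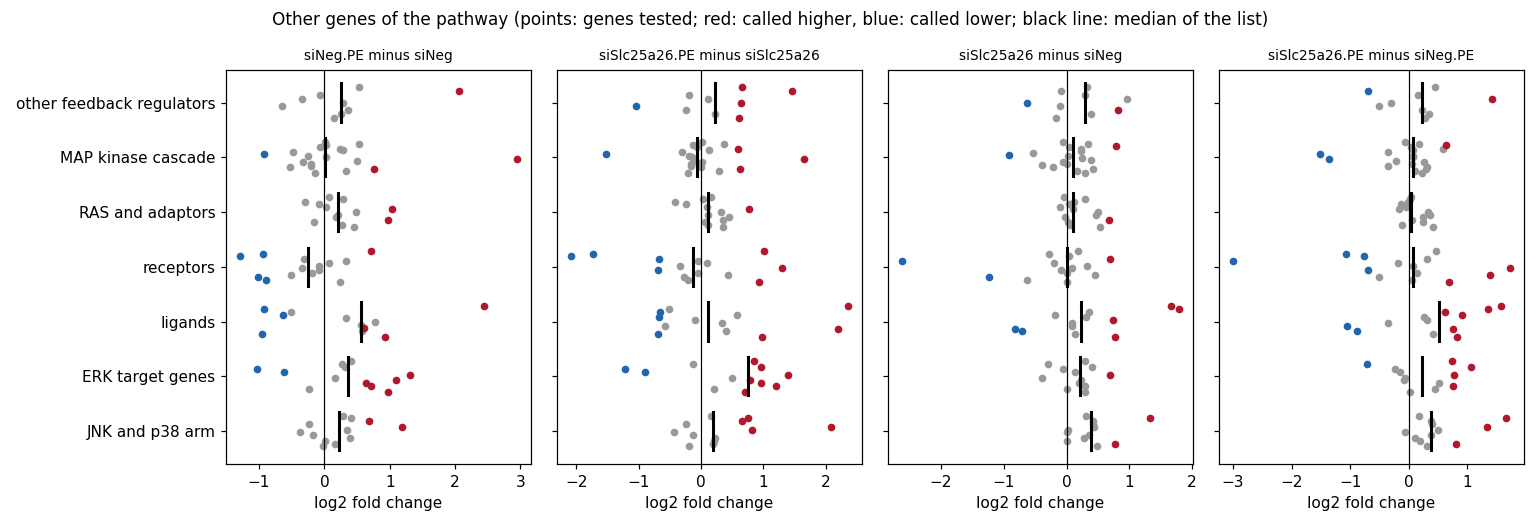
Log2 fold change of every tested gene of the 7 pathway lists in the 4 pairwise comparisons, one point for each gene, coloured where called, with a black line at the median of each list. Called genes lie on both sides of 0 in receptors, ligands and ERK targets with PE.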

How the data were processed

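The deposited tables held, for 18469 genes in 12 libraries, expected counts and FPKM, both made by the authors. Of all counts in a library, zeros included, 20.8 to 21.9% were not whole. The submitters' processing notes name HISAT, Bowtie2 and build Rnor_6.0, and the counter, strand setting and filters are not given in the sources used here. Total counts were 24770972 to 28709049 per library, and all columns were mapped to a sample by name. The expected counts were rounded and analysed with edgeR 4.0.16 in R 4.3.3 (filterByExpr, TMM scaling, quasi-likelihood F-test, Benjamini-Hochberg adjustment over all genes tested in the comparison). Only the groups compared entered a pairwise fit, and the difference between PE effects was an interaction term over all 12 libraries. The CPM printed were TMM-scaled over the 12 libraries. A call needed an adjusted p under 0.05 and a fold change over 1.5. Without the count model, 3 libraries against 3 allow no exact p under 0.1.

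The alternatives were DESeq2 1.42.0, its size factors in edgeR, limma 3.58.1 (voom, and on log2 FPKM after adding 1 or 0.1), the unfiltered table, at least 10 counts in every library, no fold threshold, 1 fit over all libraries, a replicate block, and leaving out each library. On simulated data for PE in siNeg, 193 of 200 genes changed 2-fold were called among 13281, with 6 unchanged genes called, and for the interaction 175 of 200 among 13289, with 9 unchanged. Rounding moved no member's count by more than 0.219%.

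The members and gene lists were chosen with earlier results of these data known. All members are named, and of the pathway lists at most the 3 genes called with the largest changes per list, comparison and direction. For likeness the 3 genes with the highest Pearson's r of log2 CPM were taken per member, of which the first 1 or 2 are printed. RefSeq promoters of build GRCr8 were matched by gene ID, and 91.8% of the IDs in the table had a RefSeq entry. Some results of the list of RAS genes and adaptors are not reported here. Cell type markers and interferon genes were read as lists.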

Additional observations from a re-analysis of the deposited data

Results flagged for a closer look

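For the genes given here, the effect of PE differed between the siRNA conditions by the interaction test, and these values are log2 differences, siSlc25a26 minus siNeg, with edgeR's Benjamini-Hochberg adjusted p. Among the phosphatases the difference was 0.97, adjusted p = 0.0308 for Dusp4, 0.75, adjusted p = 0.0394 for Dusp8, -0.75, adjusted p = 0.00395 for Dusp5 and 0.47, adjusted p = 0.04998 for Dusp14. For Spry2 it was 0.33, adjusted p = 0.0203. In the pathway lists, the difference was 1.57, adjusted p = 0.00121 for the ligand Hbegf, -0.61, adjusted p = 0.0450 for the RAS inhibitor Spred1 and 0.33, adjusted p = 0.0268 for the p38 activator Map2k3. Among the ERK targets and the JNK arm it was 0.63, adjusted p = 0.0216 for Epha2, 0.46, adjusted p = 0.0449 for Ier3, -0.43, adjusted p = 0.0309 for Egr1 and 0.45, adjusted p = 0.0426 for Jun. For the receptors it was 0.92, adjusted p = 0.000488 for Fgfr2, 0.71, adjusted p = 0.0257 for Fgfr3, 1.61, adjusted p = 0.0485 for Erbb3, 0.67, adjusted p = 0.000641 for Igf1r, -0.39, adjusted p = 0.0309 for Ednra, -0.81, adjusted p = 0.00233 for Adra1b and -0.82, adjusted p = 0.00898 for Adra1d. Dusp14, Spry2, Map2k3, Ier3, Egr1, Jun and Ednra were inside the 1.5-fold line. Over all genes, 2.16% had a larger and 3.34% a lower PE effect past 1.5-fold. Erbb3 was at 0.666 ± 0.114, 0.529 ± 0.248, 0.722 ± 0.209 and 1.76 ± 0.358 CPM in siNeg, siNeg.PE, siSlc25a26 and siSlc25a26.PE. With 1 library left out, the difference was called in 3 of 12 fits for Spred1, 2 of 12 for Erbb3, 6 of 12 for Fgfr3, 8 of 12 for Epha2 and in all 12 for Fgfr2, Igf1r, Adra1b, Adra1d and Hbegf. For the genes inside 1.5-fold in the pathway lists the adjusted p passed in 7 of 12 fits for Map2k3, 6 of 12 for Egr1, 4 of 12 for Ier3, 4 of 12 for Ednra and 3 of 12 for Jun. For Dusp14 it passed only without replicate 3 of siSlc25a26.PE or replicate 2 of siSlc25a26. For Spry2 it did not pass without replicate 2 of siNeg.PE, replicate 2 of siSlc25a26.PE or replicate 1 of siSlc25a26. The Spred1 difference was also lost with DESeq2 size factors and on both FPKM scales, and that of Epha2 on both FPKM scales. Every one of these differences draws on the siSlc25a26.PE libraries, in which the level of the targeted gene was that of siNeg.PE. Groups of 3 libraries were too small to be searched for single outlying libraries.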

How the results depend on the processing

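Removing the fold threshold moved the member counts most: 3 lower for PE in siNeg, 6 higher and 2 lower for PE in siSlc25a26, 3 higher for the siRNA without PE, 4 higher for the siRNA under PE and 4 higher for the difference between PE effects. With limma on log2(FPKM + 1), 0 members were lower with PE in siNeg, since Dusp10 came to -0.53, and Spry4 there came to 0.52, both with adjusted p under 0.05. With log2(FPKM + 0.1), 2 members were lower with PE in siSlc25a26, Dusp10 being added at -0.62. Spry4 with PE in siNeg came to 0.57 on that scale, so it was not called on either FPKM scale. With limma-voom 1 member had a larger PE effect in siSlc25a26, because Dusp8 came to adjusted p = 0.0562. The other 89 member counts under alternatives that kept all libraries stayed within 1.5 times their values. With 1 library left out, members lower with PE in siNeg were 0 to 1, members higher for the siRNA under PE 1 to 2, and members with a larger PE effect in siSlc25a26 0 to 2. The other 7 counts kept to within 1.5 times. The cause of these moves was not tested, beyond the fold threshold itself. Of the recomputed counts for the pathway lists, 507 stayed within 1.5 times and 88 did not. The marker lists were not recomputed under the alternatives. Dusp5 (PE in siSlc25a26, siRNA under PE, difference between PE effects), Dusp4, Dusp6 and Dusp8 (PE in each siRNA condition), Dusp8 (siRNA under PE) and Dusp14 (siRNA without PE) were called in every alternative run.

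Signs turned for uncalled values alone. For Dusp5 with PE in siNeg the value was -0.038 and -0.039 on the FPKM scales and -0.070 to 0.11 with 1 library left out. For Dusp1 it was -0.017 and -0.017 for the siRNA under PE on the FPKM scales, and leaving out 1 library gave -0.13 to 0.017 for its PE difference in siSlc25a26. For the Spry1 difference between PE effects it was -0.011 to 0.19 with 1 library left out.

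The shared replicate numbers were not taken as pairs, since in each of the 6 pairs of groups at least 1 same-numbered correlation of deviations was under 0.1. They were 0.00943 to 0.217 (siNeg, siNeg.PE), 0.0252 to 0.209 (siNeg.PE, siSlc25a26.PE), 0.0546 to 0.165 (siNeg, siSlc25a26.PE), -0.0913 to 0.0562 (siNeg, siSlc25a26), -0.0730 to -0.00536 (siSlc25a26, siSlc25a26.PE) and -0.0183 to 0.0661 (siNeg.PE, siSlc25a26). Adding that number as a replicate block left the member counts unchanged in all 5 comparisons (4 higher and 1 lower for PE in siNeg), and no member's call changed.

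On log2(FPKM + 1) the median of all genes moved to -0.13 for PE in siSlc25a26 and -0.11 for the difference between PE effects. The share of calls that were higher went from 49.2 to 27.4% and from 39.3 to 23.4%, and for the siRNA without PE from 55.3 to 64.8%. The member values above are not corrected for that shift.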
